A study of Homo sapiens with 6 samples.

Results

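The genes described here encode inhibitors of the cyclin-dependent kinases (CDKs), the enzymes that drive cells through the division cycle. They are CDKN1A, CDKN1B and CDKN1C of the CIP/KIP family, CDKN2A, CDKN2B, CDKN2C and CDKN2D of the INK4 family, and CDKN3, a phosphatase that shares the naming. They were chosen by their official gene symbols, and all 8 had a row among the 19240 genes of the count table. The cells were A549, a long-established line from a human lung carcinoma, held for 48 h in medium without glucose (3 libraries) or in medium with 25 mM glucose (3 libraries). The labels name no other treatment, genotype or drug. Reads were counted at the 3' ends of transcripts, and libraries held 11086416 to 14060313 gene counts without glucose and 6701004 to 14259943 with it. The labels do not tell whether the 3 libraries of a group are separate cultures. The p-values therefore speak of library-to-library spread alone, part of which may be technical.

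The families act at different points of the cycle. INK4 proteins bind CDK4 and CDK6 and keep D-type cyclins from activating them, so that the retinoblastoma protein RB stays active and holds E2F transcription factors in check. CIP/KIP proteins bind whole cyclin-CDK complexes, above all those with CDK2. CDKN3 is a dual-specificity phosphatase that takes the activating phosphate off CDK2. A549 cells are known to have lost CDKN2A by homozygous deletion.

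Without glucose, 2 CIP/KIP genes rose and the INK4 genes that had counts fell. CDKN1A rose 2.28-fold and CDKN1C 3.75-fold, while CDKN1B did not pass the test. CDKN2C was 6.29-fold lower without glucose, CDKN2D 1.88-fold lower and CDKN3 2.02-fold lower. The call for CDKN2D was the least stable, passing in 7 of 12 alternative settings, while those for the other genes that changed passed in all 12. CDKN2A and CDKN2B had no counts at all. A gene passed at an adjusted p under 0.05 in edgeR's quasi-likelihood test, adjusted by Benjamini-Hochberg over 11886 genes. Of the 6 inhibitor genes tested, 2 rose, 3 fell and 1 did not pass. Among all genes tested 22.3% passed, 11.6% higher and 10.7% lower without glucose. The groups did not overlap for 5 of the 6, a pattern seen for 40.4% of all genes tested (21.0% higher and 19.4% lower without glucose). The median log2 fold change of all genes tested was 0.02. All 6 lay above the filter on low counts, set here at 0.838 CPM (counts scaled to a common library size of 1e6), in every library, so none entered through 1 group alone.

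**Figure D1:**
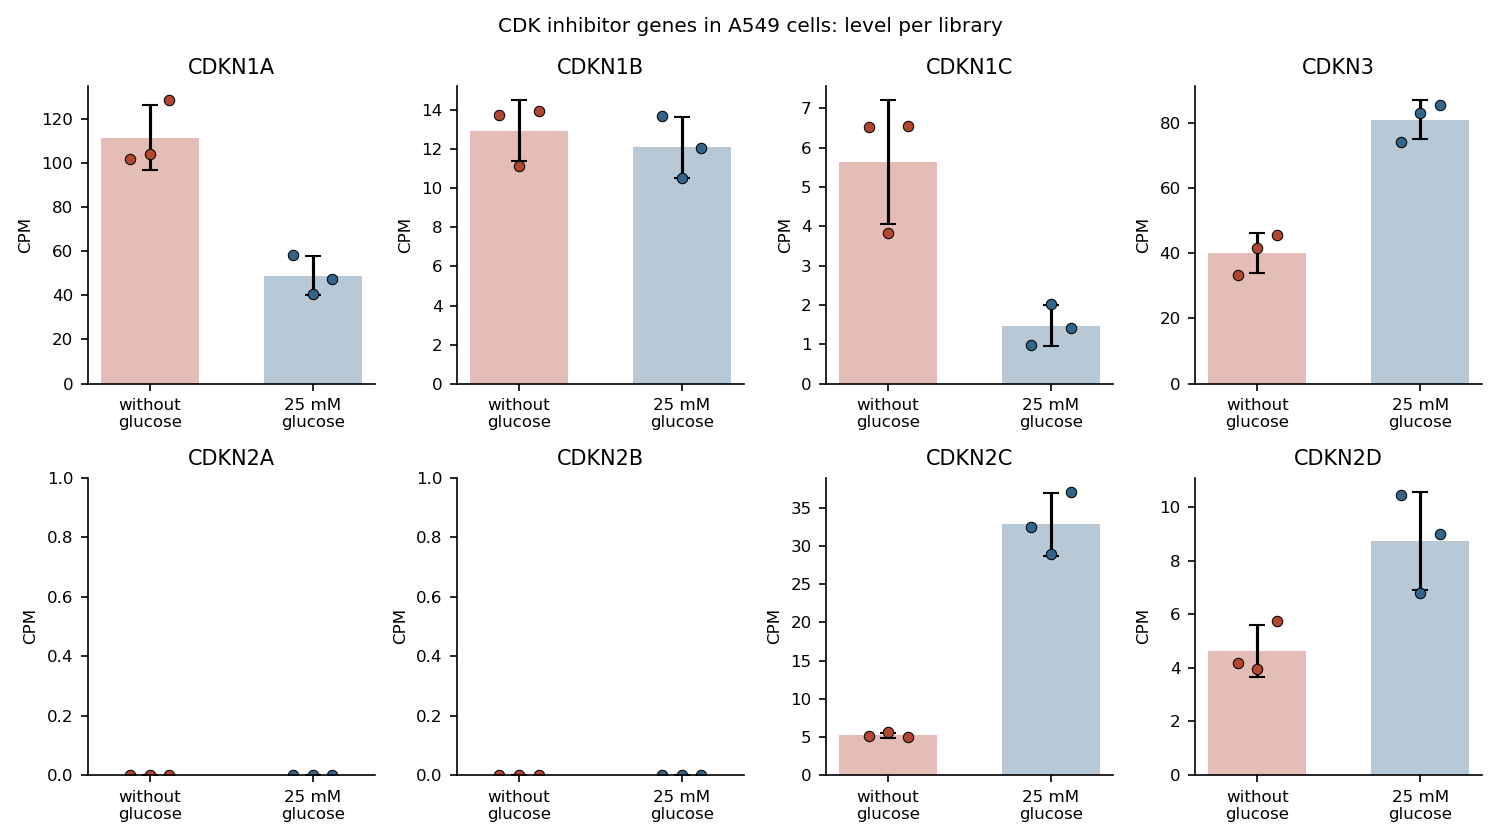
Level of each inhibitor gene in CPM, scaled by the library factors, in A549 cells without glucose (left of each panel) and with 25 mM glucose (right); points are libraries, bars the mean and error bars the SD (n = 3 per group). CDKN1A and CDKN1C are higher without glucose, CDKN3, CDKN2C and CDKN2D are lower, CDKN1B overlaps between the groups, and CDKN2A and CDKN2B lie at 0.

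CDKN1A encodes p21, which binds cyclin-CDK2 and also PCNA, the sliding clamp of DNA replication. Its counts were 1073, 1363 and 1745 without glucose, against 414, 425 and 673 with glucose, for replicates 1, 2 and 3. Scaled to library size they gave 102, 104 and 128 CPM without glucose, against 58.5, 40.8 and 47.3 CPM with glucose. Every library without glucose lay above every library with it. The means were 111 ± 14.8 CPM without glucose and 48.9 ± 8.93 CPM with glucose (SD, n = 3 each). This was a log2 fold change of 1.19 ± 0.21 (SE, edgeR adjusted p = 0.00224). CDKN1A ranked 690th from the top by log2 fold change among the 11886 genes. The 12 alternative settings gave 1.08 to 1.34, and all of them passed.

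The reference promoters of CDKN1A, CDKN2C and CDKN3 are shown because these genes had the most counts among those that changed, and they moved in both directions; they were picked after their values were seen. They are RefSeq windows of assembly GRCh38.p14, from 250 bases before to 50 after the transcript start, whereas the counts were made on build hg19. The table held windows for 7 of the 8 genes, 10 windows in all. CDKN1C has no entry in it. Capitals mark matches, on either strand, to 4 motifs. These are the GC box bound by SP1 (GGGCGG), the CCAAT box, the cell cycle homology region CHR (TTTGAA), and 4 spellings of the E2F site, which are TTGGCGC and TTGCCGC, and also TTCGCGC and TTCCCGC. Windows are written 5′ to 3′ on the strand of the gene, which is the plus strand for all 3.
CDKN1A, chr6:36678464-36678763: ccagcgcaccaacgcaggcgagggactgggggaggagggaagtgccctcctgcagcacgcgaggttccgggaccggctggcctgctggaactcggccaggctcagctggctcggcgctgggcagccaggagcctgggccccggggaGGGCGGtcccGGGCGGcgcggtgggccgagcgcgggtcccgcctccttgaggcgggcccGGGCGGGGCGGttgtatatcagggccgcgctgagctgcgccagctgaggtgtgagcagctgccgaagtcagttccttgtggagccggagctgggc
CDKN2C, chr1:50968456-50968755: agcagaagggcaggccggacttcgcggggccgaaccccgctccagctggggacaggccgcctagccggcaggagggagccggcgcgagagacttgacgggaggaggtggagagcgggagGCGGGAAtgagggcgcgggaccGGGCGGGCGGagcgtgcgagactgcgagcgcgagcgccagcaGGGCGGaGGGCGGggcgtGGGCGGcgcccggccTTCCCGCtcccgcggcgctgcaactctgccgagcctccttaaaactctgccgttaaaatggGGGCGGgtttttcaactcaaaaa
CDKN3, chr14:54396757-54397056: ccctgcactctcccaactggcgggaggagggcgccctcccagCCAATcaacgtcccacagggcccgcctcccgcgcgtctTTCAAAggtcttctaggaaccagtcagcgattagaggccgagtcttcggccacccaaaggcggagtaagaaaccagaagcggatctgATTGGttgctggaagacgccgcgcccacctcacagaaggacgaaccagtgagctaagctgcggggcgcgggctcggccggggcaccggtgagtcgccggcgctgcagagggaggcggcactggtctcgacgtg
The CDKN1A window held 4 matches to the GC box, of which 2 overlap by their ends, and none to the other motifs. Of the 35116 windows in the table, 45.0% held a GC box, 34.6% a CCAAT box, 15.2% the CHR letters and 13.0% 1 of the E2F spellings. The window of CDKN1B, the gene that did not pass, held 3 CCAAT boxes and 1 GC box. A match describes letters and is no measured binding site.

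CDKN1C encodes p57, a CIP/KIP protein expressed from the maternal allele. It had few reads: 69, 50 and 89 counts without glucose, against 7, 21 and 20 with glucose. That is 6.54, 3.82 and 6.55 CPM without glucose, against 0.989, 2.02 and 1.41 CPM with glucose. The groups did not overlap, although the lowest library without glucose lay within 2 CPM of the highest with it. The log2 fold change was 1.91 ± 0.40 (SE, edgeR adjusted p = 0.00562), the highest of the 6 genes and also the one with the widest error. Counts pooled over each group gave a ratio of 3.69 without over with glucose, with an exact 95% interval of 2.69 to 5.17 that covers counting error only. All 12 alternatives passed, with log2 fold changes from 1.73 to 2.18.

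CDKN1B encodes p27, a brake that cells in quiescence keep largely through protein stability. It had 145, 146 and 190 counts without glucose, against 97, 110 and 172 with glucose. Levels were 13.7, 11.2 and 14.0 CPM without glucose, against 13.7, 10.6 and 12.1 CPM with glucose, so the groups overlapped. Its log2 fold change was 0.10 ± 0.23 (SE, edgeR adjusted p = 0.782). It passed in none of the 12 alternatives, where the value ran from 0.01 to 0.19. A pooled count ratio of 1.08 had an exact 95% interval of 0.944 to 1.24 for counting error.

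CDKN2C encodes p18, an INK4 inhibitor of CDK6 and CDK4. Its counts were 54, 73 and 67 without glucose, against 230, 301 and 528 with glucose. Levels were 5.12, 5.58 and 4.93 CPM without glucose, against 32.5, 28.9 and 37.1 CPM with glucose. The 3 libraries without glucose lay close together and far below all 3 with it. This was a log2 fold change of −2.65 ± 0.22 (SE, edgeR adjusted p = 3.07e-05). CDKN2C ranked 12th by p and 42nd from the bottom by log2 fold change among 11886 genes. The 12 alternatives gave −2.74 to −2.56 and all passed. Of its 3 RefSeq windows the one printed above held 2 matches to the E2F spellings, 1 on each strand, and 6 GC boxes, of which 2 overlap. It was the only 1 of the 3 with E2F matches, and which start these cells use was not tested. The window at the start farthest downstream held 1 CCAAT box and 1 GC box, and the third held none of the motifs. In bulk libraries, fewer cells that express a gene and less RNA per cell cannot be told apart.

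CDKN2D encodes p19, an INK4 inhibitor of CDK4 and CDK6. Its counts were 44, 52 and 78 without glucose, against 74, 71 and 128 with glucose. Levels were 4.17, 3.98 and 5.74 CPM without glucose, against 10.5, 6.82 and 9.00 CPM with glucose. The groups did not overlap, but replicate 3 without glucose and replicate 2 with glucose were about 1 CPM apart. The log2 fold change was −0.91 ± 0.29 (SE, edgeR adjusted p = 0.0412). The call was lost when glucose-free replicate 1 or 2 was left out (edgeR adjusted p = 0.104 and 0.103), and likewise for replicate 1 or 3 with glucose (edgeR adjusted p = 0.0959 and 0.108). With a replicate block it was lost as well (edgeR adjusted p = 0.0705). The direction stayed the same, with values from −1.10 to −0.77. Its RefSeq window held 3 GC boxes and 1 CCAAT box.

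CDKN2A, which encodes p16 and through another reading frame ARF, had no count in any library. Nor had CDKN2B, which encodes p15 and lies beside it on chromosome 9. A level under 3 counts, or 0.211 to 0.424 CPM depending on the library, cannot be told from 0. Neither gene entered the test, and no fold change is given. Genes near them were counted. MTAP, a methionine salvage enzyme, had 5.88, 4.74 and 11.1 CPM without glucose, against 7.77, 7.01 and 8.51 CPM with glucose (log2 fold change −0.10 ± 0.33, edgeR adjusted p = 0.855). KLHL9, an adaptor of a ubiquitin ligase, averaged 55.0 ± 7.34 CPM without glucose and 38.6 ± 6.18 CPM with glucose, and DMRTA1, a transcription factor, 1.45 ± 0.61 and 2.68 ± 0.79 CPM (SD, n = 3 each). None of the 3 passed. CDKN2B-AS1, an antisense transcript that overlaps both inhibitor genes, had no row under that symbol and so could not be analysed.

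CDKN3, the CDK2 phosphatase, had 352, 543 and 619 counts without glucose, against 526, 868 and 1219 with glucose. Levels were 33.4, 41.5 and 45.6 CPM without glucose, against 74.3, 83.3 and 85.7 CPM with glucose. All 3 libraries without glucose lay below all 3 with it, and the gap between the groups was wider than the spread inside either. The log2 fold change was −1.01 ± 0.20 (SE, edgeR adjusted p = 0.00411), and the 12 alternatives, which all passed, gave −1.12 to −0.90. Its window, printed above, was the only 1 of the 10 with the CHR letters, here on the minus strand. It also held a CCAAT box on each strand.

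The families were set side by side by summing the reads of their genes in each library, as a description with no test. Each read stands for a transcript end, so the sums are not divided by transcript length. CIP/KIP genes summed to 122, 119 and 149 CPM without glucose, against 73.2, 53.4 and 60.8 CPM with glucose. INK4 genes, here CDKN2C and CDKN2D alone, summed to 9.29, 9.56 and 10.7 CPM without glucose, against 42.9, 35.7 and 46.1 CPM with glucose. The CIP/KIP sum was thus 2.08-fold higher and the INK4 sum 4.23-fold lower without glucose. In each library the CIP/KIP reads outnumbered the INK4 reads, by 12.5 to 14.0 times without glucose and 1.32 to 1.70 times with glucose. The ratio averaged 13.2 ± 0.74 without glucose and 1.51 ± 0.19 with glucose (SD, n = 3 each), an 8.76-fold difference.

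**Figure D2:**
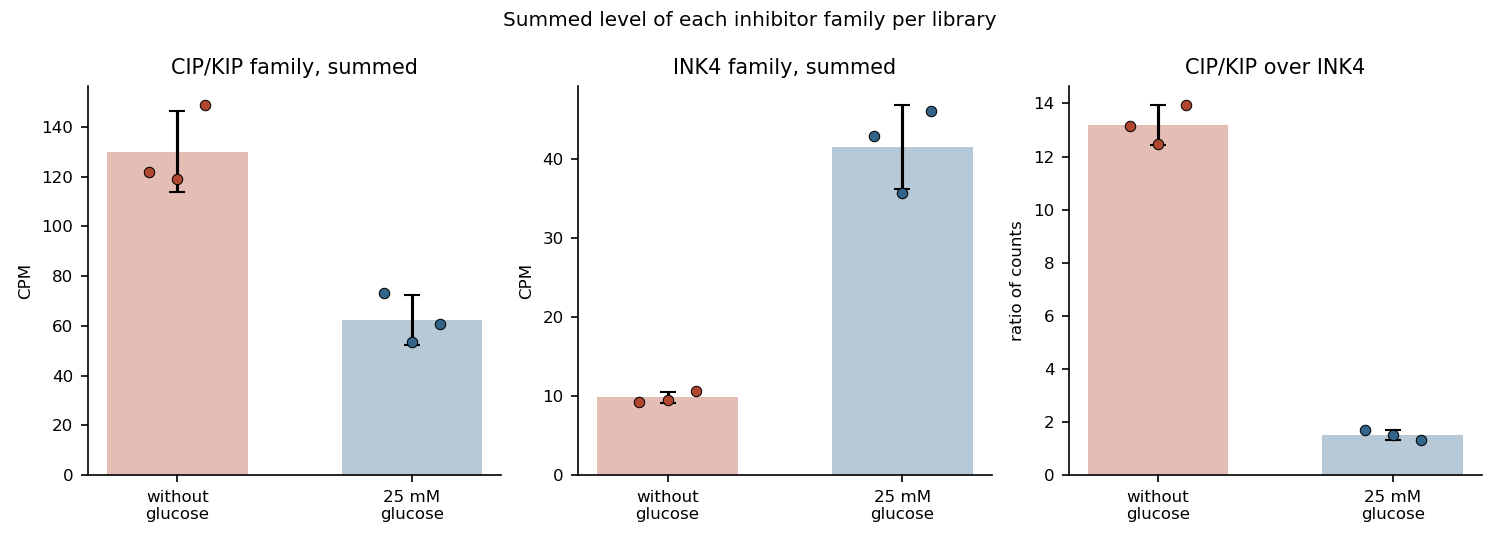
Summed CPM of the CIP/KIP genes (left), of the INK4 genes (middle) and the ratio of their counts (right) in cells without glucose and with 25 mM glucose; points are libraries, bars the mean and error bars the SD (n = 3 per group). The ratio lies between 12.5 and 14.0 without glucose and between 1.32 and 1.70 with glucose.

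Within each family the make-up also shifted. CDKN1A made up 83.4%, 87.4% and 86.2% of CIP/KIP reads without glucose, against 79.9%, 76.4% and 77.8% with glucose. Exact 95% Clopper-Pearson intervals of these shares reached from 81.2% to 89.0% without glucose and from 72.7% to 83.3% with glucose, counting error only. The share of CDKN2C among INK4 reads was 55.1%, 58.4% and 46.2% without glucose, against 75.7%, 80.9% and 80.5% with glucose. Its exact intervals reached from 37.9% to 67.1% without glucose and from 70.4% to 84.8% with glucose. In both families the shares of the groups did not overlap.

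The kinases and cyclins that these inhibitors bind were measured in the same libraries. Of 4 tested genes among the INK4 targets and their D-type cyclins, 1 fell and 3 did not pass (median log2 fold change −0.38, against 0.02 over all genes tested). CCND3, a D-type cyclin, averaged 8.48 ± 1.36 CPM without glucose and 40.1 ± 5.35 CPM with glucose (log2 fold change −2.24 ± 0.22). CDK6 and CDK4, the kinases INK4 proteins bind, had log2 fold changes of −0.45 ± 0.19 and −0.31 ± 0.22 and did not pass (edgeR adjusted p = 0.112 and 0.332). CCND1 ran from 364 to 782 CPM without glucose and from 368 to 443 CPM with glucose. Of 7 tested kinases and cyclins of S phase and mitosis, the CIP/KIP targets, 6 fell and 1 did not pass (median −1.38). CCNA2, cyclin A2, averaged 16.6 ± 0.69 CPM without glucose and 60.2 ± 8.11 CPM with glucose. CCNB1 and CCNB2, the B-type cyclins of mitosis, had log2 fold changes of −1.65 ± 0.23 and −1.33 ± 0.20. CDK2, the kinase most bound by p21 and p27, fell with −1.38 ± 0.24. These lists, like all those below, were chosen with earlier results of the same libraries known.

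**Figure D3:**
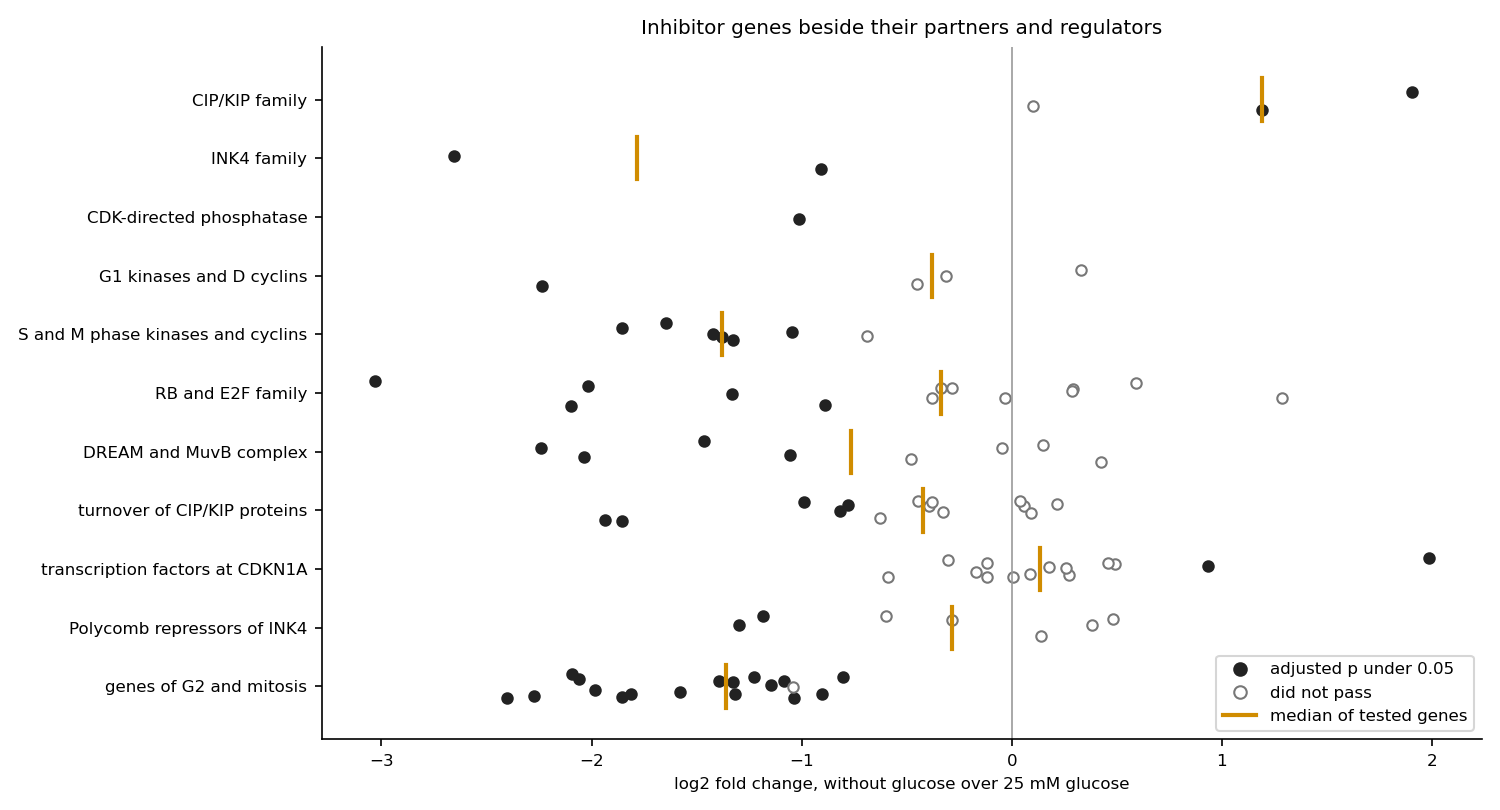
Log2 fold change, without glucose over 25 mM glucose, of each tested gene of the inhibitor families (top) and of lists of partners and regulators; each point is a gene, filled where the edgeR adjusted p is under 0.05, and the vertical bar is the median of the tested genes. CDKN1A and CDKN1C lie right of 0, while CDKN1B, which did not pass, lies close to it at 0.10. The INK4 genes lie left of 0, beside kinases, cyclins and mitotic genes that mostly lie left.

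Downstream of the INK4 brake, 5 of 13 tested RB and E2F family genes fell and 8 did not pass (median −0.34, but −0.17 with glucose-free replicate 3 left out and −0.53 with glucose-free replicate 1 left out). E2F1, an activator of S phase genes, averaged 8.39 ± 1.52 CPM without glucose and 36.1 ± 10.4 CPM with glucose. E2F2, a related activator, had a log2 fold change of −3.03 ± 0.45, and E2F8, a repressor of the same family, −2.02 ± 0.33. RBL2, the RB relative p130 of quiescent cells, stood at 125, 26.2 and 22.6 CPM in the libraries without glucose, against 19.9, 26.7 and 24.3 CPM with glucose, so 1 library sets its mean, and it did not pass (edgeR adjusted p = 0.0908). With glucose-free replicate 2 or 3 left out, which keeps that library, RBL2 passed as higher (edgeR adjusted p = 0.0419 and 0.0407). It also passed with all 6 libraries and no filter on low counts (edgeR adjusted p = 0.0321). RBL1, another RB relative, stood at 44.8, 19.7 and 16.6 CPM without glucose, against 30.1, 36.4 and 32.0 CPM with glucose. It did not pass (edgeR adjusted p = 0.551). With glucose-free replicate 1 left out, RBL1 passed as lower (log2 fold change −0.86, edgeR adjusted p = 0.0253). In the DREAM and MuvB complexes, which hold cell cycle promoters silent or switch them on, 4 of 8 genes fell and 4 did not pass (median −0.77). FOXM1 and MYBL2, activators at those promoters, had log2 fold changes of −2.04 ± 0.20 and −2.24 ± 0.27, and LIN54, a DNA-binding MuvB subunit, −1.46 ± 0.30. Of 18 genes of G2 and mitosis, listed beside CDKN3, 17 fell and 1 did not pass (median −1.36). Without replicate 3 of the cells without glucose 12 of them fell. PLK1 and AURKA, mitotic kinases, fell by 2.06 ± 0.20 and 2.40 ± 0.25 on the log2 scale. For KIF20A, a motor protein of cytokinesis, the log2 fold change was −2.28 ± 0.23.

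CIP/KIP proteins are removed by ubiquitin ligases. Of 14 tested genes of that turnover, 5 fell, 0 rose and 9 did not pass (median −0.42); without replicate 3 with glucose 3 fell. SKP2, which picks p27 for destruction, averaged 10.1 ± 0.57 CPM without glucose and 17.3 ± 1.82 CPM with glucose (log2 fold change −0.78 ± 0.22). DTL, which picks p21 during S phase, had a log2 fold change of −1.86 ± 0.22, and PCNA, the clamp on which it does so, −1.94 ± 0.23. CKS2, a small CDK-binding protein, fell with −0.99 ± 0.22. These are transcript levels, and no protein was measured.

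Among transcription factors known to act at CDKN1A, 2 of 14 tested rose and 12 did not pass (median log2 fold change 0.13). The 2 that rose are close to the share of 11.6% higher among all genes tested. That median was 0.05 with glucose-free replicate 1 left out, 0.21 with replicate 1 with glucose left out and 0.07 with gene totals as scaling. FOXO3, which is active when growth signals are low, averaged 52.3 ± 6.32 CPM without glucose and 27.4 ± 2.48 CPM with glucose (log2 fold change 0.93 ± 0.20, edgeR adjusted p = 0.00547). EGR1, an immediate-early factor, averaged 7.81 ± 1.48 CPM without glucose and 2.07 ± 1.08 CPM with glucose. It is also a member of the list for handling stress below. MYC, which represses CDKN1A, had −0.59 ± 0.21 (edgeR adjusted p = 0.0652). It passed with DESeq2 (log2 fold change −0.61, adjusted p = 0.0343).

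Polycomb proteins are known to keep CDKN2A and CDKN2B silent in cells that carry these genes. Both had no counts here, and A549 cells are known to have lost CDKN2A by homozygous deletion, as stated above. Whether Polycomb proteins have a part in the missing counts was not tested. Of 7 tested genes of the Polycomb complexes 2 fell and 5 did not pass (median −0.29, but −0.44 with no filter on low counts and −0.46 with DESeq2). Over all genes tested 10.7% were lower. EED and EZH2, of the complex that methylates histone H3, had log2 fold changes of −1.18 ± 0.23 and −1.30 ± 0.27, and CBX8, of the other complex, −0.60 ± 0.25 without passing. Among 7 genes named as partners of the inhibitors or their kinases, CDK2AP2 rose by 1.48 ± 0.23 and CDKN2AIPNL fell by 1.27 ± 0.23 on the log2 scale, and 5 did not pass. A single gene in each direction is close to the shares of 11.6% higher and 10.7% lower among all genes tested. The median of these 7 was −0.31, but −0.20 with glucose-free replicate 2 left out and −0.18 with replicate 2 with glucose left out.

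The genes whose levels followed an inhibitor gene most closely were ranked by Pearson correlation of log2 (CPM + 0.5) over the 6 libraries, among 11152 genes averaging 20 or more counts. The 6 points fall into 2 groups, so these values mostly restate the difference between the groups. They are given as a description. CDKN1A was followed by SEC61A1 (r = 0.997), a channel subunit of the endoplasmic reticulum. TMEM54 also had r = 0.997 with it. For CDKN1C the nearest genes were MIA2 (r = 0.996) and PLOD2 (r = 0.995), a collagen lysyl hydroxylase. CDKN2C was followed by GINS4 (r = 0.999), of the replicative helicase, then by WDR4 (r = 0.998), OAS3 (r = 0.997) and SNRNP25 (r = 0.996). TK1 (r = 0.996), the thymidine kinase of dividing cells, was 5th. CDKN3 was followed by NABP2 (r = 0.997), a single-stranded DNA binding protein, and KIF20A (r = 0.995). For CDKN2D they were HIF1AN (r = 0.998) and COMMD4 (r = 0.998), and neither of these passed the test between the groups.

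The label and the libraries were checked with marker genes. All 6 epithelial markers had counts and summed to 3076 to 3811 CPM without glucose and 4488 to 5698 CPM with glucose. Most of each sum came from KRT7, KRT8 and KRT18. EPCAM and CDH1 averaged 3.09 and 7.87 CPM without glucose, against 4.10 and 5.93 CPM with glucose. KRT8 and KRT18, keratins of simple epithelia, fell, and the others did not pass. Their log2 fold changes were 0.23 ± 0.20 for KRT7, 0.42 ± 0.27 for CDH1, −0.43 ± 0.39 for EPCAM and −0.49 ± 0.22 for KRT19. Of 6 markers of alveolar type II cells, SFTPA1 and SFTPC were at 0 in all libraries, and SFTPB, SFTPD and NKX2-1 stayed under 1 CPM in each. ABCA3, a lipid transporter of those cells, averaged 22.1 ± 2.52 CPM without glucose and 14.7 ± 0.53 CPM with glucose (SD, n = 3 each) and did not pass. The 4 leukocyte markers summed to at most 0.147 CPM without glucose and 1.69 CPM with glucose. The 5 fibroblast markers summed to 4.51 to 5.89 CPM without glucose and 13.0 to 14.9 CPM with glucose, of which COL1A1 was the main part. The 3 endothelial markers stayed under 1 CPM in each library. Of 12 immediate-early and heat-shock genes, a list for handling stress, 6 rose and 6 did not pass (median 0.93) in the libraries in which CDKN1A was high. With 1 library left out 4 to 7 rose, and DESeq2 called 8 higher and 1 lower. Over all genes tested 11.6% were higher. JUN averaged 465 ± 183 CPM without glucose and 180 ± 1.90 CPM with glucose, and HSPA1B, a heat-shock chaperone, 205 ± 53.2 and 71.1 ± 11.7 CPM. Their part in the change of CDKN1A was not tested.

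**Figure D4:**
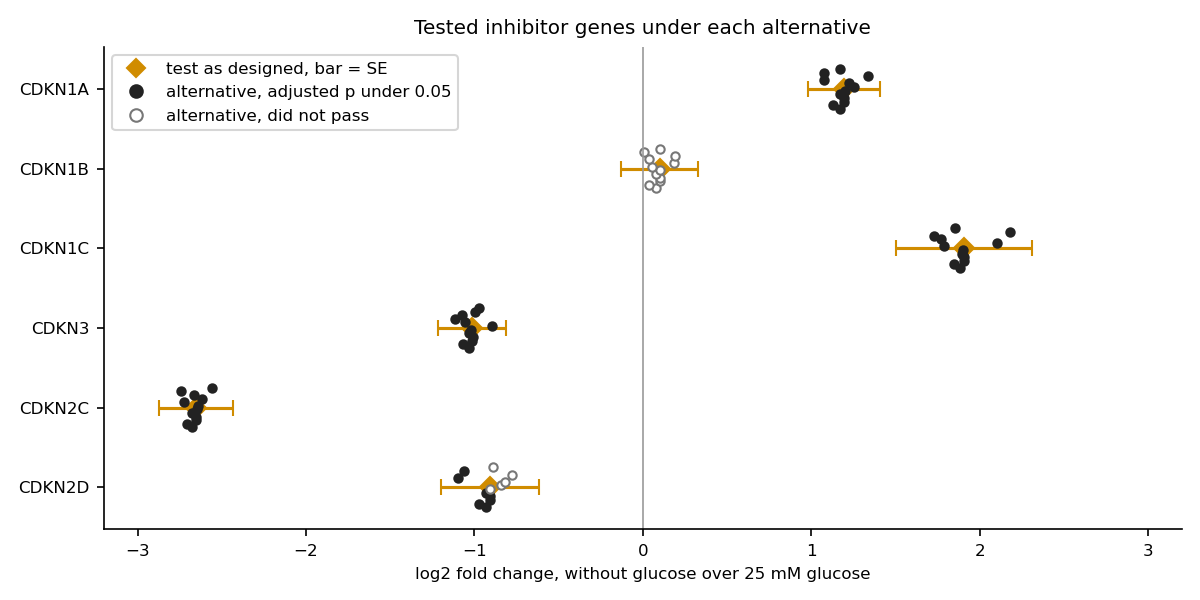
Log2 fold change, without glucose over 25 mM glucose, of the 6 tested inhibitor genes; diamonds with SE bars are the test as designed and points the 12 alternatives, filled where the adjusted p is under 0.05. CDKN2D is the gene with points on both sides of the threshold, and CDKN1B passes in none.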

How the data were processed

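Libraries of A549 cells were primed with barcoded oligo-dT, pooled by an Actb signal and amplified for 12 PCR cycles, per the labels' protocols, which mention no molecular identifiers. The deposited values are raw counts of reads per gene, for which STAR, HTSeq and build hg19 are named by the authors, per the submitters' processing notes. The sources used here give no tool versions, annotation or strand setting. Without a known strand setting, reads of CDKN1A and of DINOL, an antisense RNA, cannot be told apart where the genes overlap. AC008115.3, an intronic RNA on the same strand as CDKN1B, overlaps that gene. Neither RNA had a row under its symbol. The 5 HTSeq summary lines stayed out of all totals (32.8% to 36.5% of a library lay outside genes and 18.4% to 22.2% aligned more than once). Entrez identifiers were matched to symbols through a RefSeq table of GRCh38.p14 (19178 of 19240).

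The groups were compared with the two-sided quasi-likelihood F test of edgeR 4.0.16 in R 4.3.3 on the counts, with TMM scaling, filterByExpr at a minimum count of 10 and no covariate. The script was tested on simulated counts. SE is the size of the log2 change over the root of F. CPM here is relative to the TMM-scaled library size. The members, the 15 gene lists and the motifs were chosen with earlier results of these data known. Named genes are all members, the 3 genes with the smallest p in each list and the genes most like each member that passed. CCND1, RBL1, RBL2, CDK2, SKP2, COL1A1, ABCA3, KRT8 and KRT18 were named after their values were seen. Of 148 list entries, 147 had a row. Libraries of a group differed beyond sampling noise (chi-square over degrees of freedom 22.1 to 57.3), so none were merged for the test. The pooled count ratios and their intervals leave this spread out. Alternatives were RLE scaling, gene totals, 2 other filters, DESeq2 1.42.0, a replicate block and leaving out each library. Some genes that the rule names, and 1 gene list, are not reported here. No sample column was left unused.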

Additional observations from a re-analysis of the deposited data

How the results depend on the processing

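CDKN1A, CDKN1C, CDKN2C and CDKN3 kept their direction and passed in all 12 alternatives, and CDKN1B passed in none. CDKN2D kept its direction and passed in 7. With a replicate block its log2 fold change was −0.91 (edgeR adjusted p = 0.0705), and when 1 library was left out it ran from −1.10 to −0.77. The replicate block gave 984 genes higher and 911 lower without glucose, against 1376 and 1276 without it. The labels state no pairing of the libraries. Deviations from the group means of same-numbered libraries correlated at −0.30, −0.14 and 0.04. Values from so few libraries cannot settle whether they were paired. DESeq2 called 1476 genes higher and 1505 lower. When 1 library was left out, 858 to 1292 genes were higher and 781 to 1232 lower. With gene totals as scaling 1207 were higher and 1465 lower, and the median of all genes was −0.04. MTAP, which never passed, changed sign to 0.03 and 0.12 with glucose-free replicate 1 or 2 left out, and ran from −0.56 to 0.12. The cause was not tested. Other values numbered 708, for the 3 genes with the smallest p in each list and the genes most like a member. Of these, 673 kept their side of the threshold, 29 lost a call and 4 gained one. The calls gained by RBL1 and RBL2 are not among them. Reads of CDKN2D pooled over each group gave a ratio of 0.543 without over with glucose (exact 95% interval 0.447 to 0.659). That interval treats reads as independent and leaves out the spread between libraries, so it cannot speak for the call of CDKN2D. CDKN2A and CDKN2B cannot be assessed beyond the floor of 3 counts.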
